A study of Mus musculus with 2 samples.

Results

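Tip-like tumour endothelial cells are the 422 cells, of 4224 kept and 6194 deposited, that scored highest on 7 genes associated with the leading cells of vessel sprouts: Apln, Esm1, Angpt2, Cxcr4, Trp53i11, Lxn and Nid2. A cell was kept where at least 2000 genes had a value above 0. Members were chosen by a score, the mean over these genes of the deposited value, the natural log of 1 plus the UMIs (molecules counted by unique molecular identifiers) per 10000 UMIs of the cell. Members are the top 10% of the kept cells of both libraries pooled, and the other 3802 kept cells are those they are set against. The members were 322 cells of the library titled NF2 KO and 100 cells of the library titled control, and the other kept cells were 2498 and 1304.

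In a sprouting vessel, the tip cell leads, extends filopodia along a gradient of VEGF and opens a path through the matrix, while the stalk cells behind it divide and form the tube. VEGF raises the Notch ligand Dll4 in the tip cell, and Notch signalling in its neighbours holds them back from the same state. In tumours, endothelial cells with a tip programme are known to express Apln, Esm1, Angpt2 and Cxcr4.

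The data are droplet single-cell transcriptomes (10x Genomics 3′ v3.1 chemistry) of tumour endothelium, sorted on CD31, of C57BL/6 mice labelled as adult. One library is labelled as knockout of Nf2 and 1 as control, so the libraries differ in the label of genotype and share the strain, the age class, the sort and the tissue. Merlin, the product of Nf2, sits under the cell membrane and feeds into the Hippo kinases, which hold the transcriptional coactivators YAP and TAZ in check. The tumour type, the number and sex of the mice, the exons removed, the driver of the knockout and what the control carries are not given in the sources used here. Barcodes of each library carry a run number, 1 or 2, which the labels leave unexplained. Runs are given as parts of 1 library and not as replicates.

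The tip-like cells held 7006770 UMIs in the NF2 KO library and 2687715 UMIs in the control library, and the other kept cells held 50271258 and 29083979 UMIs. The median tip-like cell had 19454 UMIs against 17608 UMIs for the other kept cells of the NF2 KO library, and 22786 against 18696 UMIs in the control library. Mitochondrial UMIs took a median of 3.16% in tip-like cells and 3.36% in other kept cells of the NF2 KO library, and 3.12% and 3.31% in the control library. The minimum of 2000 genes left out 548 of the 3368 NF2 KO cells and 1422 of the 2826 control cells. Of the control cells left out 1284 were from run 1 of that library, and 45 of the 1970 cells left out had a score at or over that of the lowest member. Levels are given as CPM, the UMIs of a gene per 1000000 UMIs summed over a group of cells. Brackets and ranges after a value are 95% counting intervals, which cover neither the spread between animals nor that between libraries, and with 1 library per group no test between groups was possible. A gene is called higher or lower where its CPM ratio was at least 1.5 in that direction, the interval excluded 1 and the mean level was at least 20 CPM. Between tip-like and other kept cells this had to hold in both libraries.

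The tip-like cells of both libraries carried general endothelial markers. Pecam1, the gene of the CD31 antigen used in the sort, stood at 1174 CPM in tip-like and 1042 CPM in other kept cells of the NF2 KO library, and at 1337 and 1111 CPM in the control library. Cdh5, the endothelial cadherin, stood at 899 and 909 CPM in the NF2 KO library and at 1430 and 1395 CPM in the control library. Over 19 general endothelial markers, 17 passed in neither direction and 2 were lower in tip-like cells, Eng and Fli1, against a background over all 5766 genes tested of 4.09% called higher and 4.49% called lower. Markers of other cell types were low. The 12 markers of pericytes and smooth muscle summed to 56.7 CPM in NF2 KO and 276 CPM in control tip-like cells. Kcnj8 and Abcc9, subunits of an ATP-sensitive potassium channel, made up nearly all of the control sum, while the defining pericyte genes Pdgfrb, Cspg4 and Notch3 had no UMI in control tip-like cells and 0.143, 0.143 and 0.999 CPM in NF2 KO tip-like cells. The 11 fibroblast markers summed to 12.6 and 16.7 CPM in NF2 KO and control tip-like cells, 15 myeloid markers to 98.2 and 129 CPM, 11 lymphocyte markers to 0.428 and 1.12 CPM, and the 10 epithelial and tumour cell markers found in the files to 3.57 and 2.60 CPM. No tip-like cell of either library had 0.5% or more of its UMIs in such markers, which allows up to 1.14% of the NF2 KO and 3.62% of the control tip-like cells. Among other kept cells 11 of the NF2 KO and 7 of the control library did. The part of other cells' RNA in the results below was not tested.

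The score genes chose the cells, so their levels describe the choice. The lowest member scored 2.218 and the highest cell outside 2.216, with 80 members within 0.05 above the edge and 92 other cells within 0.05 below it. The members are therefore the upper end of a continuous range (median of all kept cells 1.48, highest cell 2.93) and not a separate group. Tip-like cells of the 2 libraries had nearly the same median score, 2.35 in NF2 KO and 2.34 in control, as 1 edge was used for both. Apln, which encodes the ligand apelin (chrX:48025146-48034853 of GRCm38), stood at 2972 CPM in NF2 KO and 2012 CPM in control tip-like cells, against 1360 and 727 CPM in other kept cells. Esm1, a secreted proteoglycan induced by VEGF (chr13:113209659-113218098), stood at 3604 and 2607 CPM, against 1058 and 679 CPM, and Angpt2, the destabilising ligand of the receptor Tie2 (chr8:18690263-18741562), at 2166 and 1676 CPM, against 843 and 571 CPM. These 3 secreted factors were on the NF2 KO side among tip-like cells. With 1 edge of the score for both libraries, such sides among members are shaped by the choice of the cells. Nothing is read from the side of any score gene.

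The other 4 score genes did not share that side. Cxcr4, the receptor of the chemokine CXCL12 (chr1:128588199-128592293), stood at 360 CPM in NF2 KO and 525 CPM in control tip-like cells, against 97.2 and 162 CPM in other kept cells. Trp53i11, a p53-inducible membrane protein gene (chr2:93187548-93201759), stood at 1002 and 1429 CPM, against 492 and 806 CPM, and Nid2, the basement membrane linker nidogen 2 (chr14:19751265-19811787), at 294 and 475 CPM, against 103 and 231 CPM. Lxn, a carboxypeptidase inhibitor gene (chr3:67457998-67463926), was level between the libraries at 450 and 441 CPM, against 221 and 268 CPM. As a share of the mean score, Apln gave 20.2% in NF2 KO and 17.7% in control tip-like cells, and Nid2 gave 7.95% and 10.0%.

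**Figure D1:**
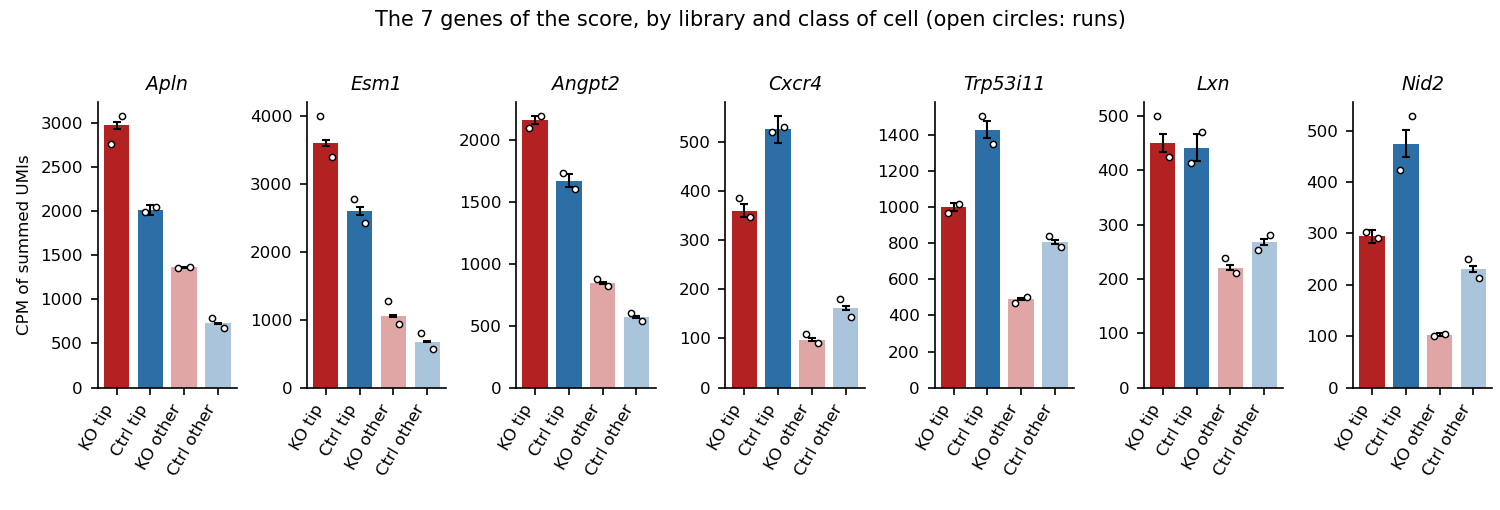
Level (CPM of summed UMIs, linear axis from 0) of each of the 7 score genes in tip-like and other kept cells of the NF2 KO and control libraries; bars are pooled values with 95% counting intervals and open circles are the runs. Apln, Esm1 and Angpt2 are taller in the NF2 KO than in the control tip-like bar, Cxcr4, Trp53i11 and Nid2 are shorter, and Lxn is level at 450 and 441 CPM.

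Tip-like cells took 11.4% of the kept NF2 KO cells (322 of 2820, exact Clopper-Pearson interval 10.3 to 12.7) and 7.12% of the kept control cells (100 of 1404, 5.83 to 8.60). The runs of the NF2 KO library gave 11.5% and 11.4%, and those of the control library 7.35% and 6.86%, so both NF2 KO runs lay above both control runs. With every cell thinned to 4000 UMIs and scored again, 289 of the 422 members (68.5%) were chosen again, and the shares were 11.5% (10.4 to 12.8) in NF2 KO and 6.91% (5.64 to 8.36) in control. With each score gene divided by its SD over kept cells, the members were 299 of the 2820 NF2 KO and 123 of the 1404 control cells. The shares then lay nearer to each other. The shares rest on unequal losses to the gene minimum, given above, and whether these bear on the difference was not tested.

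Outside the score, 236 of 5766 genes tested (4.09%) were higher and 259 (4.49%) were lower in tip-like than in other kept cells of both libraries. In the NF2 KO library alone 315 were higher (5.46%) and 383 lower (6.64%), and in the control library alone 414 were higher (7.18%) and 564 lower (9.78%). Since the score was read from the same cells, these counts and ratios are a description. The genes highest by the smaller of the 2 ratios included secreted factors, matrix genes and genes induced by low oxygen. Nptx1, a pentraxin gene best known from neurons, led with 19.8 CPM in tip-like and 3.88 CPM in other kept cells of the NF2 KO library, and 68.5 against 19.5 CPM in the control library. Pgf, which encodes placental growth factor, a ligand of VEGF receptor 1 (chr12:85166635-85177790), stood at 1602 CPM in tip-like and 515 CPM in other kept cells of the NF2 KO library (ratio 3.11, 3.04 to 3.18), and at 1987 against 450 CPM in the control library (4.41, 4.27 to 4.56). Fn1, the gene of fibronectin (chr1:71585520-71653200), stood at 3929 against 1326 CPM (2.96, 2.92 to 3.005) in NF2 KO and 2445 against 621 CPM (3.94, 3.83 to 4.05) in control. The ranges of tip-like runs did not overlap those of the other kept cells for any of these 3 genes.

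Receptors were in this group as well. Vldlr, a lipoprotein receptor gene, stood at 29.3 CPM in tip-like against 9.91 CPM in other kept cells of NF2 KO, and at 67.0 against 10.5 CPM in control. F2rl1, which encodes the protease-activated receptor 2, stood at 126 against 43.1 CPM in NF2 KO, and at only 8.93 against 2.20 CPM in control, where its log2 ratio was −0.49 without the top decile of kept cells by the hypoxia list, in place of 2.02. Sdc4, the heparan sulphate proteoglycan syndecan 4, stood at 158 against 58.5 CPM in NF2 KO and 105 against 24.1 CPM in control. The remaining genes of the 12 were Egln3, Bnip3, Ak4, Tanc2, Osgin1 and Rassf4, whose ratios in the NF2 KO library ranged from 2.81 to 3.23.

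The genes lowest in tip-like cells are known from other vascular segments and from dividing cells. Aplnr, the receptor of the ligand that Apln encodes (chr2:85136225-85139923), stood at 0.714 CPM in tip-like and 48.7 CPM in other kept cells of the NF2 KO library, and at 2.98 against 75.8 CPM in the control library. Selp, the P-selectin of venules (chr1:164115264-164150026), stood at 6.42 against 179 CPM in NF2 KO and at 0.744 CPM, from 2 UMIs of 1 cell, against 54.7 CPM in control (ratio 0.0136, 0.00165 to 0.0492). Fbln2, a matrix fibulin of larger vessels, stood at 0.714 against 48.4 CPM in NF2 KO and at 0.372 CPM, from 1 UMI, against 34.4 CPM in control (ratio 0.0108, 0.000273 to 0.0604). Car4, a carbonic anhydrase of capillaries, stood at 7.71 against 126 CPM in NF2 KO and at 4.09 against 41.2 CPM in control, where every tip-like UMI came from 1 cell. Nts, Rbp7, Cd300lg, Serpina3g, Slfn9, Csf2rb2, Hist1h1b and Cdca8 completed the 12, and 79.2% of the Hist1h1b UMIs of control tip-like cells came from 1 cell. Without cycling cells the log2 ratio was 1.61 for Hist1h1b in control and 0.23 for Cdca8 in NF2 KO. With the members chosen again without run 2 of the control library, the control log2 ratio was −4.62 for Selp and −1.55 for Car4, in place of −6.20 and −3.33.

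**Figure D2:**
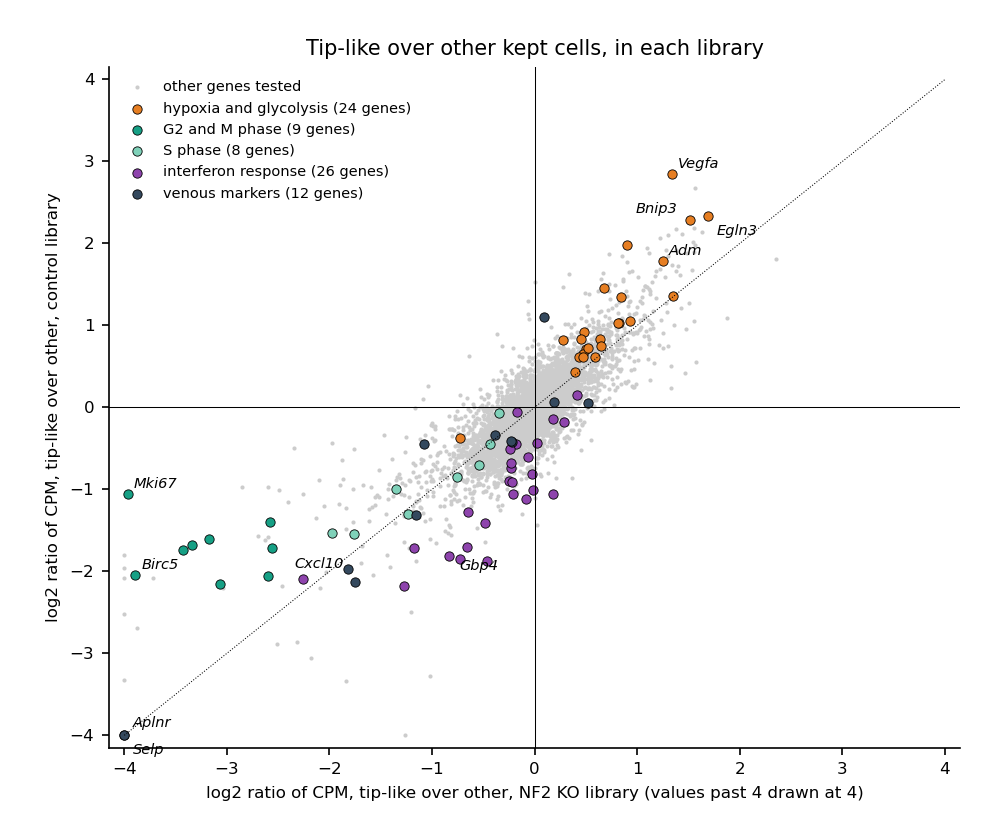
Log2 ratio of CPM, tip-like over other kept cells, in the NF2 KO library (horizontal axis) and in the control library (vertical axis) for each gene tested, with the members of 5 lists in colour and values past 4 drawn at 4. Egln3, Bnip3 and Vegfa lie far above 0 on both axes, and Aplnr and Selp far below 0 on both.

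Genes induced by low oxygen and glycolytic enzymes made up the list with the most higher members. Of 24 with enough counts, 13 were higher, none was lower and 11 passed in neither direction, beside 4.09% and 4.49% over all genes tested. The list's median log2 ratio was 0.65 in the NF2 KO and 0.88 in the control library, against −0.05 and −0.08 over all genes. Egln3, a prolyl hydroxylase of the hypoxia-inducible factors and itself one of their targets (chr12:54178981-54203860), stood at 188 CPM in tip-like and 58.1 CPM in other kept cells of NF2 KO (3.23, 3.02 to 3.45), and at 353 against 70.1 CPM in control (5.04, 4.66 to 5.44). Bnip3, a mitophagy receptor gene (chr7:138890836-138909519), stood at 258 against 90.2 CPM in NF2 KO and 332 against 67.9 CPM in control. Vegfa stood at 38.4 against 15.2 CPM in NF2 KO and 72.2 against 10.0 CPM in control, and Ankrd37 at 556 against 219 CPM and 459 against 180 CPM. The summed list took 15804 CPM in tip-like against 10042 CPM in other kept cells of NF2 KO, and 17971 against 9650 CPM in control.

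Cell by cell, the overlap between the tip score and this list was partial. The top decile of kept cells by the hypoxia list was taken by the mean deposited value over its genes. It held 33.9% (29.4 to 38.6) of the tip-like cells, against 7.34% (6.53 to 8.21) of the other kept cells. By library these were 28.6% against 7.37% in NF2 KO and 51.0% against 7.29% in control, and with cells thinned to 4000 UMIs 29.4% against 7.84% over both. Without the top decile by that list, a setting chosen after seeing the data, 7 of the list's members were higher and 1 was lower, in place of 13 and 0.

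The promoter of Egln3 and that of Bnip3 are shown because they are the called genes of this list with the highest ratios among those whose promoter holds the core of the hypoxia response element, ACGTG, on either strand. Each is the 250 bases before the gene's start in the RefSeq table (GRCm38.p6), read on the strand of the gene, with the core in capitals. The Egln3 window is chr12:54203875-54204124, minus strand, with 1 core. The Bnip3 window is chr7:138909507-138909756, minus strand, and its capitals hold 2 overlapping cores on opposite strands.
Egln3: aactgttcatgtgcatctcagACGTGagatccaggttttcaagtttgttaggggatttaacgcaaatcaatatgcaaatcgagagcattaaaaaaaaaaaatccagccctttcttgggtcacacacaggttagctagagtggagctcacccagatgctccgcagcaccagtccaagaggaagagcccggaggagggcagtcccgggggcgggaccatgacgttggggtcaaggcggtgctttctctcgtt
Bnip3: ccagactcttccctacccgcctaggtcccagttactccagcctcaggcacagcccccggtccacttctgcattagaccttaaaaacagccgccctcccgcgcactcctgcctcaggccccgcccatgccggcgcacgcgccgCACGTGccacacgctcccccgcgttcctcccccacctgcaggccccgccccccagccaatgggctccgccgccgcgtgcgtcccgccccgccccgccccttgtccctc
The core stood in 16.6% of the 32851 windows of the table, in 18 of the 35 windows of the list (51.4%), which belong to 16 of the 25 list genes that had one, and in 7 of the 12 such genes that were higher in tip-like cells. A match is a run of letters and was not tested as a site.

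Tip-cell genes that the score did not use were divided. Of 30, 10 were higher in tip-like cells of both libraries, 3 were lower and 17 passed in neither direction, beside 4.09% and 4.49% over all genes tested. The medians were 0.37 and 0.29 in the NF2 KO and control libraries. Beside Pgf, Ankrd37 and Vegfa, the higher members included Adm, the vasodilator peptide adrenomedullin, at 1451 CPM in tip-like and 610 CPM in other kept cells of NF2 KO and 1645 against 477 CPM in control. Unc5b, a netrin receptor of tip cells, stood at 58.1 against 15.9 CPM in NF2 KO and 200 against 93.7 CPM in control, and Kcne3, a potassium channel subunit gene, at 85.2 against 39.3 CPM and 294 against 165 CPM. Ednrb, the endothelin B receptor, was lower, at 17.3 against 97.3 CPM in NF2 KO and 59.5 against 119 CPM in control. The Notch ligand Dll4 passed in the NF2 KO library only and so is not called: it stood at 202 against 127 CPM (1.59, 1.498 to 1.68) there and at 288 against 223 CPM (1.29, 1.20 to 1.39) in control. Kdr, the gene of VEGF receptor 2, stood at 211 against 260 CPM in NF2 KO and 327 against 374 CPM in control and passed in neither direction.

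Receptors and ligands of the VEGF, angiopoietin and apelin systems counted 2 higher members of 13 (Pgf and Vegfa) and 2 lower (Aplnr and Ptprb). The shares over all genes tested were 4.09% higher and 4.49% lower. Ptprb, a phosphatase that dampens Tie2 and VEGF receptor 2, stood at 236 CPM in tip-like and 392 CPM in other kept cells of NF2 KO, and at 199 against 344 CPM in control. Of 12 stalk and Notch genes, 1 was higher and 2 were lower, few beside those shares. Ackr3, the scavenging receptor of CXCL12, was the higher one, at 216 against 76.1 CPM in NF2 KO and 366 against 151 CPM in control, and Nrarp, a feedback target of Notch, was lower at 72.5 against 110 CPM and 85.6 against 134 CPM. Cxcl12, the ligand that Cxcr4 and Ackr3 share, was higher as well, at 866 against 391 CPM in NF2 KO and 308 against 106 CPM in control. Ligand and both receptors of this chemokine axis were therefore all on the tip-like side, Cxcr4 by choice of the cells.

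Among genes of the matrix, those that modify collagen had the most higher members. Of 12 enzymes and chaperones that fold and cross-link collagen, 4 were higher and none was lower, beside 4.09% and 4.49% over all genes tested. Without cycling cells 2 were higher, as many as among the integrins. Plod1, a lysyl hydroxylase, stood at 288 CPM in tip-like and 140 CPM in other kept cells of NF2 KO and at 444 against 224 CPM in control. Plod2 stood at 69.1 against 38.2 CPM and 117 against 32.6 CPM, P4ha2, a prolyl hydroxylase subunit, at 99.2 against 47.6 CPM and 146 against 54.0 CPM, and Pxdn, the collagen IV cross-linking peroxidasin, at 300 against 180 CPM and 464 against 289 CPM. Among 15 basement membrane genes, Fn1 and the laminin chain gene Lama4 were higher and Col15a1 was lower. Lama4 stood at 517 against 253 CPM in NF2 KO and 541 against 328 CPM in control, and Col15a1 at 57.1 against 163 CPM and 120 against 203 CPM. Both subunits of the vitronectin receptor, Itgav and Itgb3, were the higher members of 9 integrin genes. Itgav stood at 174 against 92.5 CPM in NF2 KO and 173 against 73.4 CPM in control.

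Proteases and their inhibitors counted 1 higher and 4 lower members of 17, beside 4.09% and 4.49% over all genes tested. The higher count is near that share. Adamts1, a secreted metalloprotease, was lower at 52.0 CPM in tip-like and 186 CPM in other kept cells of NF2 KO and at 126 against 296 CPM in control. Of 20 actin and filopodia genes, only Tpm1 was called, which is near that share too. Tpm1 stood at 1114 against 702 CPM in NF2 KO and 660 against 329 CPM in control. Fscn1, the filopodial bundling protein fascin, stood at 554 against 298 CPM in NF2 KO (1.86, 1.79 to 1.93) and at 554 against 450 CPM in control (1.23, 1.17 to 1.30), so it passed in NF2 KO alone.

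Of 12 venous markers, 5 were lower and none was higher, and of 13 capillary markers, 7 were lower and 1 was higher. All genes tested gave 4.49% lower and 4.09% higher. Lrg1, a venule glycoprotein, stood at 154 CPM in tip-like and 544 CPM in other kept cells of NF2 KO and at 65.5 against 256 CPM in control. Aqp1, a water channel, stood at 127 against 786 CPM and 351 against 1073 CPM, and Cd36, the fatty acid translocase, at 95.5 against 287 CPM and 74.8 against 174 CPM. The whole capillary list summed to 5289 CPM in tip-like and 6208 CPM in other kept cells of NF2 KO and to 8370 against 7289 CPM in control, so its sums were on opposite sides in the libraries. Of 8 arterial markers 2 were higher (Cxcl12 and Edn1) and 3 were lower, and the list summed to 2012 against 1355 CPM in NF2 KO and 886 against 684 CPM in control. Edn1, endothelin 1, stood at 903 against 571 CPM in NF2 KO and 330 against 106 CPM in control, while Efnb2, the ephrin of arterial endothelium, stood at 11.99 against 18.6 CPM and 51.3 against 106 CPM. None of the 422 tip-like cells was in the top decile of kept cells by the venous list, which allows up to 0.870%, against 11.1% of the other kept cells.

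Cell-cycle genes were lower in tip-like cells or not called. All 9 genes of G2 and M phase with enough counts were lower in tip-like cells of both libraries. So were 5 of 8 S phase genes, beside 4.49% of all genes tested. The 19 genes of G2 and M phase summed to 98.0 CPM in tip-like and 935 CPM in other kept cells of the NF2 KO library, and to 295 against 959 CPM in the control library. Birc5, the mitotic regulator survivin, stood at 6.42 against 95.4 CPM in NF2 KO and 20.8 against 85.9 CPM in control, and Tyms, thymidylate synthase, at 29.1 against 98.9 CPM and 33.5 against 97.9 CPM. Cells with 0.1% or more of their UMIs in either list were 2.48% (8 of 322) of tip-like and 22.4% (560) of other kept cells in NF2 KO, and 6.00% (6 of 100) against 22.7% (296) in control. In the control library single cells weigh on these levels: 74.6% of the Ube2c UMIs and 84.0% of the Top2a UMIs of its tip-like cells came from 1 cell.

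Interferon-induced genes were lower in tip-like cells or not called. Of 26, 7 were lower, none was higher and 19 passed in neither direction, beside 4.49% lower and 4.09% higher of all genes tested. The median was −0.23 in the NF2 KO and −0.95 in the control library. Cxcl9, a chemokine for T cells, stood at 586 CPM in tip-like and 1321 CPM in other kept cells of NF2 KO and at 469 against 1537 CPM in control. Cxcl10, of the same family, stood at 86.2 against 414 CPM and 68.1 against 290 CPM, with 50.3% of the control tip-like UMIs in 1 cell. Of 6 leukocyte adhesion genes, Selp and Icam1 were lower, the second at 49.1 against 165 CPM in NF2 KO and 19.3 against 84.4 CPM in control. Of 4 genes of MHC class II, 3 were lower, among them Cd74, the invariant chain, at 57.2 against 116 CPM and 138 against 419 CPM.

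Several targets of YAP and TAZ were higher in tip-like cells. Of 14, 5 were higher, none was lower and 9 passed in neither direction, beside 4.09% and 4.49% over all genes tested. The medians were 0.43 in NF2 KO and 0.70 in control. The higher members were 3 in the top 5% by score, without cycling cells, and without the top decile by the hypoxia list. Ankrd1, a nuclear ankyrin repeat protein, stood at 142 CPM in tip-like and 78.6 CPM in other kept cells of NF2 KO and at 22.3 against 12.1 CPM in control, although 1 cell held 26.1% of the UMIs of the NF2 KO tip-like cells and another 35% of those of the control tip-like cells. Single runs carry this call: with the members chosen again, its log2 ratio was 0.45 in NF2 KO without run 2 of that library (in place of 0.85) and 0.39 in control without run 1 of that library (in place of 0.89), both under 1.5-fold. Tgfb2, a TGF-β ligand, stood at 146 against 67.8 CPM and 79.99 against 21.7 CPM, Gadd45a, a stress-induced growth arrest gene, at 79.6 against 41.9 CPM and 67.7 against 27.5 CPM, and Ajuba, a LIM protein that binds Hippo kinases, at 49.1 against 29.2 CPM and 20.5 against 9.90 CPM. None of 13 Hippo kinases and adaptors was called. Yap1 itself stood at 18.7 against 26.9 CPM in NF2 KO and 22.7 against 27.3 CPM in control, and Wwtr1, the gene of TAZ, at 260 against 208 CPM and 359 against 295 CPM.

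The leading genes outside the score varied with it over its whole range and not only in the top decile. Over deciles of the kept cells ordered by the score, Pgf climbed from 13.2 to 1602 CPM in the NF2 KO and from 6.64 to 1987 CPM in the control library. Aplnr declined from 172 to 0.714 CPM and from 268 to 2.98 CPM, and Selp from 732 to 6.42 CPM and from 427 to 0.744 CPM. Dll4 climbed over a narrower range, from 48.4 to 202 CPM and from 91.3 to 288 CPM. The last decile holds the members. Depth differed over the deciles too: the median cell of the first decile had 12988 UMIs in NF2 KO and 14558 UMIs in control. Mki67, a marker of proliferation, did not decline evenly in the control library, where it stood at 128 CPM in decile 8, 17.1 CPM in decile 9 and 51.3 CPM in the tip-like decile, with 55.8% of the tip-like UMIs in 1 cell.

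**Figure D3:**
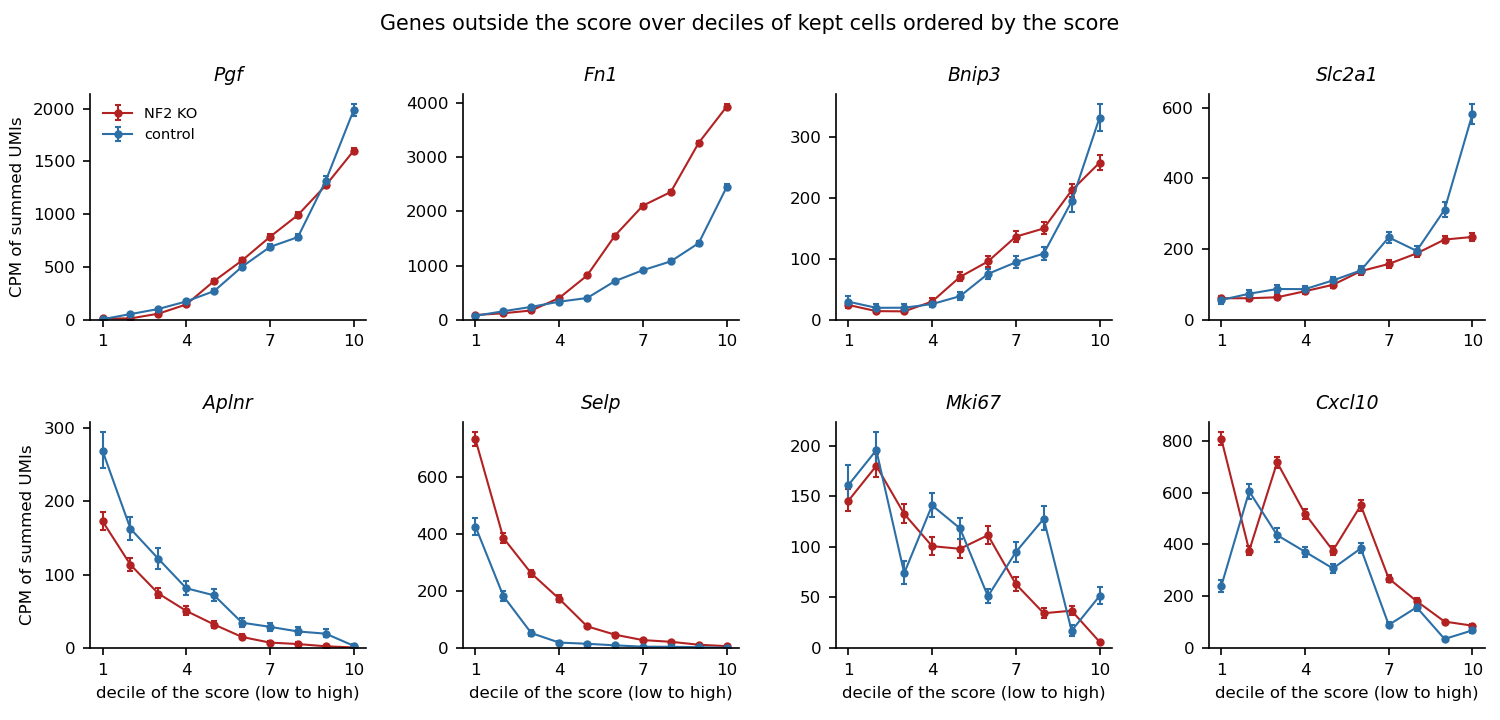
Level (CPM of summed UMIs, linear axes from 0) of 8 genes outside the score in deciles of the kept cells ordered by the score, low to high, in the NF2 KO and control libraries; bars are 95% counting intervals and the last decile holds the tip-like cells. Pgf, Fn1, Bnip3 and Slc2a1 are highest in the last decile of both libraries, and Aplnr and Selp are lowest there, at 0.714 and 6.42 CPM in NF2 KO and 2.98 and 0.744 CPM in control.

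The comparison of the libraries within tip-like cells asks which genes differ between the label of Nf2 knockout and that of control among cells of like tip score. Nf2 (chr11:4765845-4849536) had 18.3 CPM in NF2 KO and 17.1 CPM in control tip-like cells, a ratio of 1.07 (0.757 to 1.53). A count of 3′ ends need not touch the deleted exons, which are not known here, so the level of Nf2 checks nothing. Of 5633 genes tested, 268 (4.76%) were higher and 450 (7.99%) were lower in NF2 KO than in control tip-like cells, and for 265 and 439 of them (4.7% and 7.79%) all 4 pairs of runs were on that side. In the other kept cells 166 of 5839 (2.84%) were higher and 314 (5.38%) were lower. List counts given below for other kept cells stand beside these shares. They are over the listed genes with at least 20 CPM there, which need not be the genes counted in tip-like cells.

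Among the genes highest in NF2 KO tip-like cells were matrix, adhesion and guidance genes. Ank3, which encodes the membrane scaffold ankyrin-G (chr10:69398773-70027438), had 50.1 CPM in NF2 KO tip-like cells and no UMI in control tip-like cells, at least 44.9-fold higher against a floor of 3 UMIs in the control cells together. Bgn, the small proteoglycan biglycan (chrX:73483602-73495933), had 41.5 CPM in NF2 KO and 0.744 CPM, from 2 UMIs, in control (ratio 55.8, 15.3 to 463). Col8a1, a collagen of vessel walls, had 40.7 CPM in NF2 KO and 2.23 CPM in control (18.2, 8.27 to 50.1). F2rl1 had 126 and 8.93 CPM (14.1, 9.41 to 22.1), the protocadherin gene Pcdh7 69.6 and 8.19 CPM (8.51, 5.56 to 13.7), the netrin gene Ntn4 63.9 and 8.19 CPM (7.81, 5.10 to 12.6), and Clu, the chaperone clusterin, 104 and 22.0 CPM (4.74, 3.63 to 6.29). In the other kept cells the ratios of the same 7 genes were above 1 too, between 2.87 for Clu and 21.4 for Ank3. Runs weigh on some of these sizes: with the members chosen again without 1 run, the log2 ratio in tip-like cells was as low as 3.57 for Bgn (without run 2 of the NF2 KO library, in place of 5.80), 3.37 for Col8a1 (without run 2 of the control library, in place of 4.19) and 2.34 for Ntn4 (without run 1 of the control library, in place of 2.97). Ankrd1 had 142 CPM in NF2 KO and 22.3 CPM in control (6.35, 4.89 to 8.39), and Fam198b, Zfp462 and Rasa4 were also among the 12.

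The genes lowest in NF2 KO tip-like cells included an imprinted transcription factor, a plasminogen activator and channel subunits. Peg3, the paternally expressed zinc finger gene (chr7:6703892-6730431), had 3.85 CPM in NF2 KO and 65.1 CPM in control tip-like cells (ratio 0.0592, 0.0379 to 0.0891). Plat, tissue plasminogen activator, had 7.14 and 65.9 CPM (0.108, 0.0775 to 0.149). Kcnj8 had 19.8 and 174 CPM (0.114, 0.0938 to 0.138) and its partner Abcc9 19.7 and 92.3 CPM (0.213, 0.172 to 0.264). Both are also used as pericyte markers, and their list's sums and the genes at 0 are given above; the part of pericyte RNA in this difference was not tested. Tnc, the matrix glycoprotein tenascin C, had 32.7 and 159 CPM (0.205, 0.174 to 0.242), with run values of 29.1 and 34.5 CPM in NF2 KO and 147 and 172 CPM in control. Ildr2, Celf4, Tspan18, Tmem255a, Krt20, Pde3b and Mki67 completed the 12, and 44.2% and 55.8% of the Mki67 UMIs of NF2 KO and control tip-like cells came from 1 cell each.

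**Figure D4:**
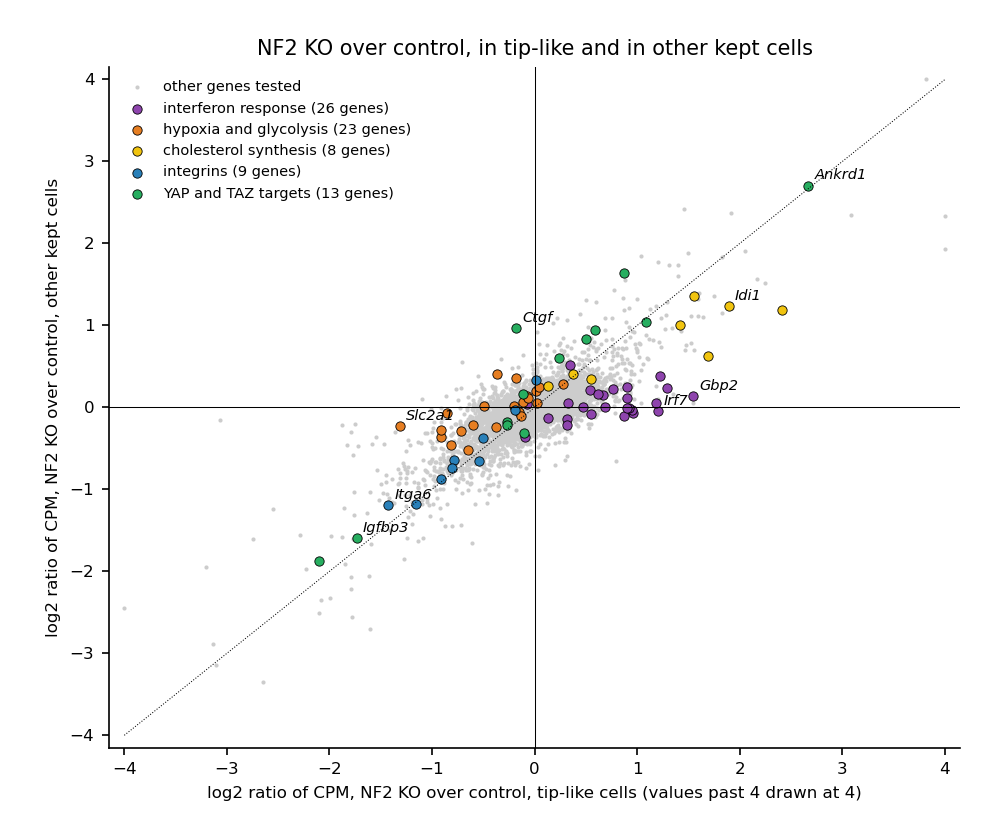
Log2 ratio of CPM, NF2 KO over control, in tip-like cells (horizontal axis) and in other kept cells (vertical axis) for each gene tested in both, with the members of 5 lists in colour, values past 4 drawn at 4 and equal ratios on the dotted line. Ankrd1 lies on the line, Gbp2, Irf7 and Idi1 lie to its right and Slc2a1 and Ctgf to its left.

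Tip-cell genes outside the score were mostly lower in NF2 KO than in control tip-like cells. Of the 30 tip-cell genes outside the score, 16 were lower in NF2 KO tip-like cells, 1 was higher and 13 passed in neither direction, beside 7.99% and 4.76% over all genes tested. The median was −0.63, against −0.03 over all genes and −0.34 for the same genes in other kept cells. There 11 were lower and 1 was higher, so this side was shared by both classes of cell. The NF2 KO ratio itself was called different between the classes for 1 higher and 3 lower members. Unc5b had 58.1 CPM in NF2 KO and 200 CPM in control tip-like cells (0.291, 0.255 to 0.331), Kcne3 85.2 and 294 CPM (0.290, 0.260 to 0.323), and Piezo2, a mechanically gated channel, 26.97 and 114 CPM (0.236, 0.196 to 0.284). Dll4 had 202 and 288 CPM (0.701, 0.642 to 0.766) and was not called. Of 12 VEGF and angiopoietin genes, 5 were lower and none was higher, and in other kept cells 5 of that list were lower too. Flt1, the gene of VEGF receptor 1, had 509 CPM in NF2 KO and 1480 CPM in control (0.344, 0.329 to 0.360), with run values of 564 and 482 CPM in NF2 KO and 1789 and 1159 CPM in control, and the coreceptor gene Nrp1 107 and 223 CPM. Of 10 stalk and Notch genes with enough counts 3 were lower, among them Notch1 with 90.6 and 156 CPM. In other kept cells 8 of the 16 listed were lower, beside 5.38% of all genes tested there.

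Of 7 genes of the chemokine and CXCR4 list, 5 were higher and 1 was lower in NF2 KO tip-like cells. Beside this, 4.76% and 7.99% of all genes tested were called. In other kept cells, where 2.84% and 5.38% of all genes tested were called, 6 of the 10 listed were higher and 1 was lower. Cxcl12 had 866 CPM in NF2 KO and 308 CPM in control (2.81, 2.61 to 3.03), Ccl2, a monocyte chemokine, 386 and 124 CPM (3.11, 2.77 to 3.49), and Cxcl1, a neutrophil chemokine, 146 and 48.4 CPM (3.02, 2.52 to 3.66), while Ackr3 had 216 and 366 CPM (0.588, 0.543 to 0.638). The ligand Cxcl12 was thus higher and its receptor Ackr3 lower. Cxcr4, the other receptor, had a ratio below 1, but it is a score gene. With 1 edge of the score for both libraries, its ratio among members is shaped by the choice of the cells, so nothing is read from it. Edn1 had 903 and 330 CPM (2.74, 2.55 to 2.94).

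Adhesion and matrix genes had more lower than higher members, beside 7.99% lower and 4.76% higher over all genes tested. This was shared by the other kept cells, where 7 basement membrane genes were lower and 2 were higher. There 6 integrins and 3 junction genes were lower as well. No integrin or junction gene had an NF2 KO ratio called different between the classes of cell. Of 15 basement membrane genes, 8 were lower in NF2 KO tip-like cells and 2 were higher, Fn1 with 3929 and 2445 CPM (1.61, 1.56 to 1.65) and the laminin gene Lamb2 with 42.5 and 21.6 CPM. Sparc, a matricellular collagen-binding protein, had 4045 CPM in NF2 KO and 7297 CPM in control, and Lamb1 had 238 and 486 CPM. Of 9 integrins 5 were lower and none was higher, with Itga6, a laminin-binding chain, at 154 and 413 CPM (0.373, 0.342 to 0.405) and Itgb3 at 124 and 233 CPM. Of 14 junction genes 5 were lower and 1 was higher. Cldn5, the main claudin of endothelium, had 226 CPM in NF2 KO and 817 CPM in control (0.277, 0.260 to 0.296) and Cdh5 899 and 1430 CPM (0.629, 0.604 to 0.655), while Cldn4, a claudin of epithelia, was higher with 37.2 and 13.0 CPM (2.86, 2.005 to 4.20), 31.4% of the control UMIs being from 1 cell.

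Genes of the hypoxia list were lower in NF2 KO tip-like cells or not called. Of 25 members, 10 were lower and none was higher, beside 7.99% and 4.76% of all genes tested. The median was −0.36 in tip-like cells against 0.01 for the same genes in other kept cells. Slc2a1, the glucose transporter GLUT1, had 234 CPM in NF2 KO and 582 CPM in control tip-like cells (0.403, 0.376 to 0.432), against 126 and 147 CPM in other kept cells. Its runs gave 216 and 244 CPM in NF2 KO and 393 and 778 CPM in control, so the control runs were far apart. Egln3 had 188 and 353 CPM (0.532, 0.489 to 0.579) and Car9, a tumour-associated carbonic anhydrase, 10.6 and 38.0 CPM (0.278, 0.203 to 0.379), with control runs at 18.2 and 58.5 CPM. The median tip-like cell had 140 and 145 UMIs per 10000 in this list in the NF2 KO runs, and 144 and 197 in the control runs. Without run 2 of the control library 7 members were lower, and without the top decile of cells by this list 3 were lower, 1 was higher and the median was 0.04.

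Interferon-induced genes were higher in NF2 KO tip-like cells or not called. Of 26, 16 were higher in NF2 KO than in control tip-like cells and none was lower, beside 4.76% and 7.99% of all genes tested. The median was 0.73 in tip-like and 0.03 in other kept cells. Gbp2, a guanylate-binding protein gene, had 320 CPM in NF2 KO and 109 CPM in control tip-like cells (2.92, 2.59 to 3.31), against 440 and 401 CPM in other kept cells. Irf7, a transcription factor of the interferon response, had 94.9 and 41.3 CPM (2.30, 1.88 to 2.84), against 83.5 and 86.1 CPM, and Iigp1, an immunity-related GTPase gene, 426 and 174 CPM (2.44, 2.22 to 2.70), against 672 and 569 CPM. The control tip-like cells were the lowest of the 4 groups: the summed list took 4770 CPM in NF2 KO and 2924 CPM in control tip-like cells, against 6636 and 6403 CPM in other kept cells.

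Single runs weigh on the interferon result. Gbp2 had 182 and 389 CPM in the NF2 KO runs and 147 and 70.6 CPM in the control runs, so the runs of the libraries did not overlap, but the lower NF2 KO run lay nearer to the upper control run than to the other NF2 KO run. With the members chosen again without run 2 of the NF2 KO library, its log2 ratio was 0.81 in place of 1.55. The list summed to 4079 and 5116 CPM in the NF2 KO runs and to 3543 and 2280 CPM in the control runs. Per cell, the medians were 22.8 and 30.8 UMIs per 10000 in the NF2 KO runs and 27.9 and 14.5 in the control runs, which overlap. With each cell given equal weight 10 members were higher and 1 was lower, with the score taken on thinned cells 10 were higher, and without run 2 of the control library 14 were higher but only 5, in place of 14, differed from the other kept cells. Without run 1 of the control library 21 were higher and 24 differed, and the count of all genes that differed rose too, as given below. Shares over all genes are not given beside these counts, so their shifts are not read as particular to this list.

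The promoters of Gbp2 and Igtp are shown for the interferon-stimulated response element, searched on either strand as GAAA, 2 bases of any kind and GAAA again. Both genes are among those whose NF2 KO ratio was higher in tip-like than in other kept cells. They had the largest such differences among those with the element, and Igtp, an immunity-related GTPase gene, was named after its values were seen. Its levels were 64.2 CPM in NF2 KO and 28.3 CPM in control tip-like cells, against 106 and 102 CPM in other kept cells. The Gbp2 window is chr3:142620413-142620662 and the Igtp window chr11:58199306-58199555, both plus strand of GRCm38.p6, 250 bases before the gene's start in the RefSeq table, with the element in capitals. In Gbp2 it lies on the opposite strand.
Gbp2: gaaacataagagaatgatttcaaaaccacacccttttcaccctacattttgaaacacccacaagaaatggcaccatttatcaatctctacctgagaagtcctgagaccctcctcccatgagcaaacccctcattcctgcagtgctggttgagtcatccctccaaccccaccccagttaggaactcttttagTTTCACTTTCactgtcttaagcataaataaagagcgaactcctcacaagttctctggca
Igtp: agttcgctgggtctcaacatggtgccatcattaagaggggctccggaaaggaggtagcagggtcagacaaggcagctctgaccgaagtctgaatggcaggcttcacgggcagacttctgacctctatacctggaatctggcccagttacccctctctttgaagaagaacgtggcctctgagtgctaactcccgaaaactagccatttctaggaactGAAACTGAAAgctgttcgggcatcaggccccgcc
The element stood in 2.98% of the 32851 windows, in 14 of the 25 windows of the list (56%), which belong to 14 of the 23 list genes that had one, and in 8 of the 12 such genes with the higher ratio in tip-like cells. Nothing about a factor follows from the letters.

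Of 14 targets of YAP and TAZ, 5 were higher and 2 were lower in NF2 KO tip-like cells, beside 4.76% and 7.99% of all genes tested. In other kept cells 7 of the 18 listed were higher and 2 were lower, beside 2.84% and 5.38% of all genes tested there. The median was 0.06 in tip-like cells, against 0.72 for the same genes in other kept cells. The median in tip-like cells depends on the cells kept: it was −0.014 without run 1 of the NF2 KO library and 0.82 without the top decile of kept cells by the hypoxia list, where 8 members were higher and 2 were lower. Ajuba had 49.1 CPM in NF2 KO and 20.5 CPM in control tip-like cells (2.40, 1.80 to 3.25) and Tgfb2 146 and 79.99 CPM (1.83, 1.58 to 2.13), while Igfbp3, whose product binds insulin-like growth factors, had 2817 and 9381 CPM (0.300, 0.295 to 0.306) and Nt5e, an ecto-nucleotidase, 26.3 and 112 CPM (0.234, 0.194 to 0.282). Ctgf, a matricellular target named after its values were seen, had 891 and 1008 CPM in tip-like cells (0.884, 0.845 to 0.925), against 540 and 276 CPM in other kept cells (1.96). Of 13 Hippo kinases and adaptors 2 were higher, Amotl2 with 79.9 and 37.6 CPM and the kinase gene Stk4 with 29.3 and 19.0 CPM.

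Several genes of cholesterol synthesis were higher in NF2 KO tip-like cells. Of 8, 5 were higher and none was lower, beside 4.76% and 7.99% of all genes tested, and 5 of the list were higher in other kept cells too. The median was 1.49 in tip-like and 0.81 in other kept cells. Insig1, an anchor of the sterol sensor, had 81.1 CPM in NF2 KO and 27.5 CPM in control tip-like cells (2.94, 2.31 to 3.804), Idi1, an isomerase of the pathway, 37.2 and 10.0 CPM (3.71, 2.49 to 5.73), and Msmo1, a sterol oxidase, 42.1 and 13.0 CPM (3.23, 2.27 to 4.73). Each of these 3 was higher in both NF2 KO runs than in both control runs. This held for 265 of the 268 genes called higher over all genes tested, so it is not particular to them. The list summed to 501 CPM in NF2 KO and 212 CPM in control tip-like cells.

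**Figure D5:**
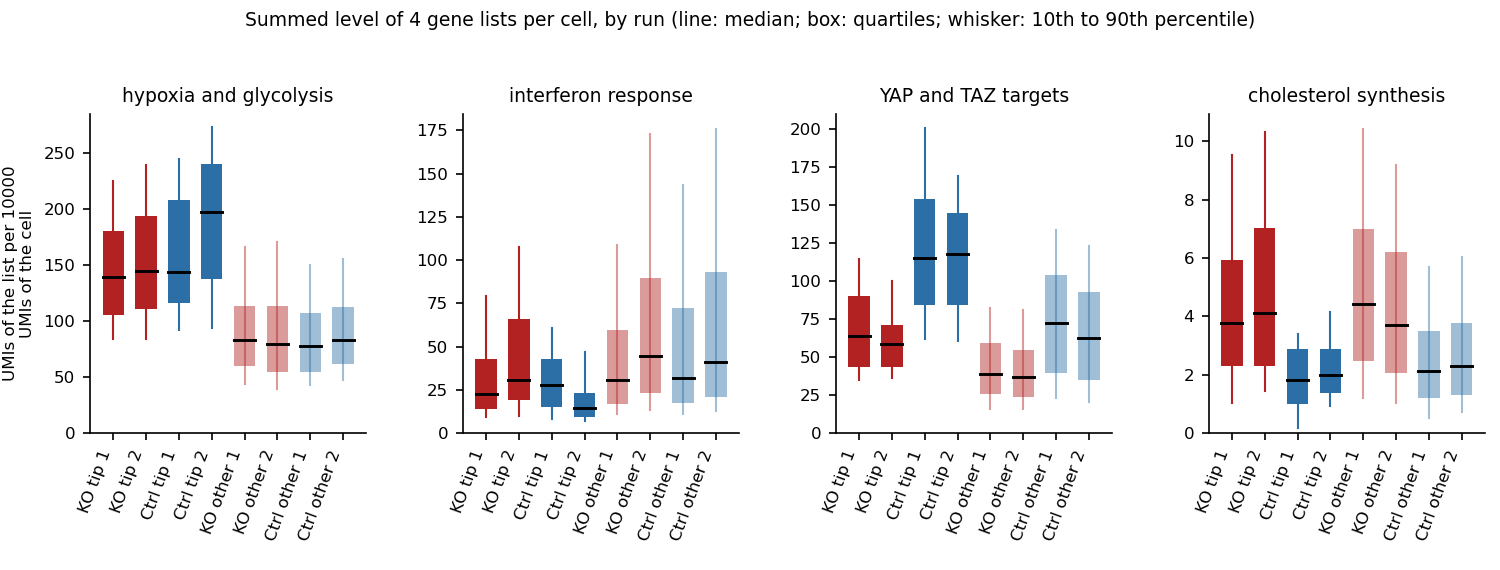
UMIs per 10000 UMIs of a cell, summed over a gene list, in tip-like and other kept cells of each library and run; black lines are medians over cells, boxes quartiles and whiskers the 10th to 90th percentile. Hypoxia list medians are higher in tip-like than in other kept cells of every run, interferon medians of the tip-like cells overlap between the libraries at 22.8 and 30.8 in the NF2 KO and 27.9 and 14.5 in the control runs, and cholesterol medians are higher in NF2 KO tip-like cells.

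Where the NF2 KO ratio itself differed between tip-like and other kept cells was asked by the difference of the log2 ratios, tip-like minus other. A gene counted where the ratio of the 2 ratios was at least 1.5 either way, its counting interval excluded 1 and both classes of cell averaged at least 20 CPM. The difference was higher for 110 of 5383 genes tested (2.04%) and lower for 98 (1.82%). Bgn and Col8a1 led, with differences of 3.47 and 2.26: other kept cells had 100 and 19.8 CPM of Bgn and 82.6 and 21.7 CPM of Col8a1 in NF2 KO and control. Ubd, an interferon-inducible ubiquitin-like modifier, had 175 CPM in NF2 KO and 59.9 CPM in control tip-like cells, against 626 and 603 CPM in other kept cells, with 36.0% of the control tip-like UMIs in 1 cell. Of the 26 interferon genes 14 were higher, of 25 hypoxia genes 4 were lower, and of 10 capillary markers 5 were lower. The hypoxia count was 7 without run 1 of the control library, 1 without run 2 of it and 0 without the top decile of kept cells by the hypoxia list. Without run 1 of the control library the count of all genes with a lower difference rose too, as given below. The capillary count was 3 without run 2 of either library. The lowest were Mki67 at −2.91, Top2a at −1.66 and Peg3 at −1.64, then Adamts9, a protease of the vessel wall, with 39.0 and 131 CPM in tip-like against 154 and 177 CPM in other kept cells, Ednrb with 17.3 and 59.5 against 97.3 and 119 CPM, and the metallothionein gene Mt2 with 27.8 and 98.6 against 29.1 and 39.99 CPM. In Top2a 1 control cell held 84.0% of the tip-like UMIs, and with the members chosen again the difference was 0.61 (run 1 of the control library left out) and 1.57 (run 2 of it left out). That of Mki67 was −0.61 without run 1 of the control library. Without run 2 of the control library the differences were 0.60 for Ubd, 0.71 for Gbp2, 0.63 for Irf7, 0.99 for Col8a1 and −0.51 for Mt2, and without run 2 of the NF2 KO library 1.18 for Bgn, in place of 1.49, 1.41, 1.24, 2.26, −1.37 and 3.47. The tip-like runs of Mt2 lay apart within each library, at 52.6 and 15.4 CPM in NF2 KO and 53.3 and 146 CPM in control, and the upper NF2 KO run was close to the lower control run.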

How the data were processed

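The authors deposited 2 tables of 19831 genes by cell, 1 per library, made with Cell Ranger 3.0.0, Seurat 3.1.1 and mm10, per the submitters' processing notes. The deposited values are natural logs of 1 plus 10000 times a cell's UMIs of a gene over its total. Whole UMIs were recovered from them (100% of values within 0.01 UMI of a whole number). They were summed over cells with Python 3.11.15 and numpy 2.4.6, with exact counting intervals from scipy 1.17.1, and the difference of log2 ratios has a Wald counting interval. UMI totals per group give the depth behind each value, and intervals cover counting error only. With 1 library per group no test was made. The recovery of UMIs and the calls between the libraries in tip-like cells were tested on simulated counts. The other comparisons were not simulated. The simulated counts had no clumping of UMIs in single cells, so they do not test the intervals of genes where 1 cell holds much of the count. The planned design took recovered counts as its unit while the deposited unit is a log.

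The members, the 32 gene lists and the naming rule were chosen with earlier results of these data known. Named genes are the 12 highest and 12 lowest outside the score in the first 2 comparisons, the 6 highest and 6 lowest differences, and up to 4 per list; Dll4, Ctgf, Igtp, Pecam1, Fabp5 and the deciles of the score were added for their role or after their values were seen. Other cells' markers and doublet scores removed no cell: 20 of the tip-like NF2 KO cells (6.21%) and 11 of the tip-like control cells (11.0%) were in the top 5% of doublet scores. Pairs of runs shared 3 barcodes, 1 of them a member's. Alternatives changed the gene minimum, the top share, the score, the level minimum, doublets, marker-bearing cells, runs and weighting. Gene locations are those of GENCODE mouse release 21 (19550 genes matched), and promoters those of RefSeq. Reads of near-identical paralogs are assigned as in the authors' counting. Some genes that these rules name are not reported here.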

Additional observations from a re-analysis of the deposited data

Results flagged for a closer look

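Pycard, an adaptor of inflammasomes, was on opposite sides in the classes of cell. Tip-like cells had 29.1 CPM in NF2 KO and 16.7 CPM in control (ratio 1.74, 1.25 to 2.46), with runs at 24.4 and 31.5 CPM in NF2 KO and 19.0 and 14.4 CPM in control. Other kept cells had 28.7 CPM in NF2 KO and 45.3 CPM in control (0.633). A gene was flagged where its classes were called in opposite directions and every pair of runs lay on its class's side. Both traits are therefore the rule that chose Pycard and no support for it. The log2 ratio was 1.46 higher in tip-like than in other kept cells. With 1 library per group this difference was not tested.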

How the results depend on the processing

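Under 18 alternatives, 106 of 111 gene results kept their direction. Of the alternatives, 3 (without cycling cells, without the top 10% by the hypoxia list, and 10000 to 40000 UMIs) were chosen after seeing the data. Members were chosen again wherever the cells or the score changed, and the causes of moved values were not tested. Most of the 111 results are of genes named for their high or low values in these same data, with tip-like ratios counted once per library. Some are of score genes, whose tip-like side the rule fixed. The tally is therefore a description and no check of the results. The shares of tip-like cells in NF2 KO and control were 5.74% and 3.49% for the top 5%. For the top 20% they were 22.9% and 14.2%. With genes divided by their SD control took 8.76%, and the members were 299 NF2 KO and 123 control cells in place of 322 and 100. Control took 5.17% without the hypoxia decile, and NF2 KO took 12.7% without its run 2. At a level minimum of 50 CPM the counts were 155 higher and 127 lower in tip-like cells, 109 higher and 245 lower in NF2 KO within them, and 38 and 37 for the difference. Without cycling cells 152 were higher and 152 lower in tip-like cells, and 186 and 153 in the difference. The difference had 247 and 175 without run 1 of the control library and 217 higher genes in the top 5%. Top2a reversed: its log2 NF2 KO ratio in tip-like cells and the difference were 0.52 and 0.79 in the top 5%, 0.28 and 0.61 without run 1 and 1.42 and 1.57 without run 2 of the control library, 0.86 and 1.21 without cycling cells, and 1.21 and 1.42 at 10000 to 40000 UMIs. The NF2 KO median in tip-like cells was 0.10 for G2 and M phase genes with the score on thinned cells, −0.014 for YAP and TAZ targets without run 1 of the NF2 KO library, and 0.043 for the hypoxia list without its top decile. Without cycling cells the tip-like log2 ratio was 1.61 for Hist1h1b in control and 0.23 for Cdca8 in NF2 KO, and without the hypoxia decile −0.49 for F2rl1 in control. Depth limits genes under 20 CPM, most in the 100 control tip-like cells. No paired analysis was possible because each group is 1 library.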

Other observations

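Guidance genes were divided, beside 4.09% higher and 4.49% lower of all genes tested in tip-like against other kept cells. In tip-like against other kept cells 2 of 14 were higher (Unc5b and Ntn4) and 2 were lower, among them Ephb4, the venous receptor of ephrin-B2, with 13.8 against 30.9 CPM in the NF2 KO and 14.1 against 35.1 CPM in the control library. Between NF2 KO and control tip-like cells 1 of 13 was higher and 5 were lower, among them Sema6d, a transmembrane semaphorin, with 46.8 and 185 CPM and Efnb2 with 11.99 and 51.3 CPM. Among other kept cells 6 guidance genes were lower in NF2 KO. Of 13 collagen-modifying genes 5 were lower in NF2 KO tip-like cells and none was higher, beside 7.99% lower and 4.76% higher of all genes tested. Lower members were 1 without run 2 of the control library and 2 with the top 20%, the top 10% of each library or equal weight per cell, and 2 without the top decile by the hypoxia list. Of 17 proteases and inhibitors 8 were lower and 3 were higher, with Timp2, a metalloprotease inhibitor, at 29.0 and 11.9 CPM. Other kept cells had 6 lower and 2 higher.

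Markers of vessel segments in NF2 KO and control tip-like cells counted 3 higher and 1 lower of 6 arterial, 3 higher and 3 lower of 9 venous, and 1 higher and 6 lower of 10 capillary genes. Of all genes tested 4.76% were higher and 7.99% lower. In other kept cells 3 of the 15 listed arterial genes were higher and 3 lower. Of 14 listed venous genes 5 were higher and 3 lower there, and of 16 listed capillary genes 3 were higher and 2 lower. Of all genes tested there 2.84% were higher and 5.38% lower. Lrg1 had 154 CPM in NF2 KO and 65.5 CPM in control, and Gpihbp1, which anchors lipoprotein lipase on capillaries, 573 and 1325 CPM. Fabp5, a fatty acid-binding protein gene, was the capillary marker higher in tip-like cells, at 780 against 510 CPM in NF2 KO and 1539 against 577 CPM in control. Lyve1, a marker of lymphatic endothelium, had 37.4 and 68.1 CPM in NF2 KO and control tip-like cells. Prox1, which defines that lineage, had 0.285 CPM and no UMI.

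Of 18 immediate early and stress genes none was higher and 1 was lower in tip-like than in other kept cells. Over all genes tested 4.09% were higher and 4.49% lower in that comparison, so the lower count is near that share. Between NF2 KO and control tip-like cells 3 of 17 were higher and 2 were lower, beside 4.76% and 7.99% of all genes tested. The heat shock gene Hspa1a had 253 and 108 CPM, and Egr1 had 284 and 439 CPM. In other kept cells 3 of the list were higher and 4 were lower. In tip-like against other kept cells junction genes counted 1 lower of 13, Jam2, and cholesterol genes 1 lower of 8, beside the same 4.49%. Cd74 had 57.2 CPM in NF2 KO and 138 CPM in control tip-like cells, but its runs were 18.0 and 76.9 CPM in NF2 KO and 226 and 46.3 CPM in control, so they overlapped. In the actin list 1 of 20 was higher (Tpm1) and 1 lower in NF2 KO than in control tip-like cells. Red blood cell markers summed to 1.14 CPM in NF2 KO and 14.5 CPM in control tip-like cells.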
